A study of Mus musculus with 14 samples.

Results

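The genes that encode the proteins of the cytosolic ribosome were followed through bulk RNA sequencing of mouse anterior cingulate cortex, a midline frontal region. Members were all protein-coding genes whose symbol is Rps or Rpl with digits and an optional a, x or l, together with Rplp0, Rplp1, Rplp2 and Rpsa. This rule took 80 of the 53465 genes counted, 31 of the small subunit (Rps, Rpsa) and 49 of the large subunit (Rpl, Rplp). The 14 libraries fall into 4 groups. AKR/J mice (AKR) gave 3 libraries after observational fear conditioning, labelled OFL, where an observer animal watches a demonstrator receive shocks, and 4 libraries when naive. C57BL/6NJ mice (B6N) gave 3 libraries after OFL and 4 when naive. All were inbred strains with no transgene or drug named in the labels, and all libraries were made from total RNA with the same kit, TruSeq RNA v2, which does not mark strand. Nothing in the labels ties each library to its own animal, so the p-values rest on the spread between libraries alone, and that spread may be technical. The OFL and naive libraries were deposited as separate count tables, so condition and library set cannot be told apart.

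The ribosome reads messenger RNA with its small subunit and joins amino acids in its large subunit, and each mature ribosome holds a single copy of nearly every ribosomal protein. Exceptions are the stalk proteins Rplp1 and Rplp2, which sit in several copies on Rplp0 and recruit elongation factors. The messenger RNAs of these proteins start with a pyrimidine tract, the 5′ terminal oligopyrimidine (TOP) motif, through which mTORC1 and the RNA-binding protein LARP1 control their translation. Neurons also translate in dendrites and axons, and ribosomal protein messenger RNAs are found there. Nearly all ribosomal protein genes have processed pseudogenes, copies made from spliced messenger RNA and put back elsewhere in the genome.

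The tract is a measured property of the members that the rule on symbols did not use, so the start sites are shown for 6 members described below. Only starts with a pyrimidine run are printed, and among several annotated starts of a gene the one with the longest run was taken. RefSeq promoter sequence (build GRCm38.p6) was matched for 60 of the 80 members. Each line gives 30 bases, from 12 bases before the annotated start, with the run of C and T bases in capitals from its first C near the start.
Rps6 (chr4:86857350-86857379, minus strand): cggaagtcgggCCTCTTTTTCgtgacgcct
Rps18 (chr17:33955648-33955677, minus strand): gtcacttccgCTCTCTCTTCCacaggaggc
Rps9 (chr7:3704029-3704058, plus strand): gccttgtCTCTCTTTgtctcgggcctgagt
Rpl14 (chr9:120571505-120571534, plus strand): cgggCCCTCTCTCTTCTCgctgagcgccgc
Rpl28 (chr7:4792953-4792982, plus strand): cctctcgtgtCTCTCTTTCCgtctccggcc
Rplp2 (chr7:141447639-141447668, plus strand): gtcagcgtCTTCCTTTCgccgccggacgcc
A run of at least 6 pyrimidines that begins with C within 10 bases of the start was found in 33 of the 60 matched members (55.0%), against 21.9% of the 27025 genes with a promoter sequence. The 7 letters CCGGAAG, read on both strands over 250 bases before the start and 50 after it, were in 25 members (41.7%) and in 9.93% of all genes. On its other strand this motif holds CTTCC, which can overlap a pyrimidine run. AAGATGGC was in 5 members (8.33%, all genes 3.19%), TATAAA in 6 (10%, all genes 15.7%) and GGGCGG in 36 (60.0%, all genes 38.2%), on either strand. These are matches of letters and not binding sites.

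The members lie on 19 chromosomes, with 14 on chromosome 7 and 4 on chromosome X. Total counts ran from 13487311 to 14396289 per library in AKR after OFL, from 19073921 to 23782061 in naive AKR, from 14063573 to 14526253 in B6N after OFL and from 20583264 to 25780227 in naive B6N. All 5 neuron markers checked (Snap25, Rbfox3, Syt1, Slc17a7 and Gad1) were counted in every group. Levels below are CPM scaled by edgeR's TMM factors. In bulk tissue, fewer cells of a type and less RNA per cell cannot be told apart.

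Ribosomal protein genes took a smaller share of the counts after OFL than in naive tissue, in both strains and in both subunits. The share was 0.682, 0.702 and 0.704% in the AKR libraries after OFL, against 0.852, 0.855, 0.795 and 0.806% in naive AKR. It was 0.692, 0.718 and 0.743% in B6N after OFL, against 0.819, 0.839, 0.852 and 0.853% in naive B6N. Every OFL library lay below every naive library of its strain, while AKR and B6N overlapped within each condition. Large subunit members took 0.428 ± 0.00636% in AKR after OFL and 0.512 ± 0.0181% in naive AKR (SD, n = 3 and 4). Small subunit members took 0.268 ± 0.00603% and 0.315 ± 0.0130% in the same groups. The ratio of large to small subunit counts stayed within 1.58 to 1.65 over all 14 libraries. No p-value is given for these sums.

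**Figure D1:**
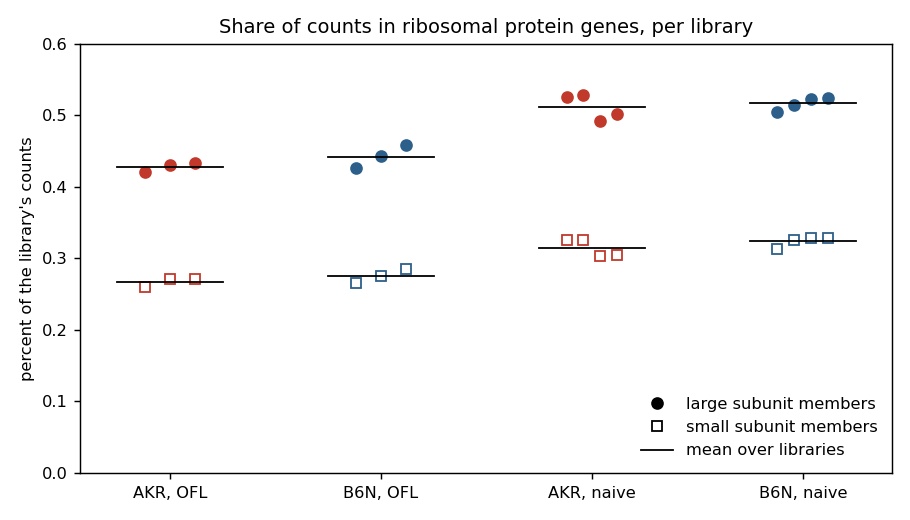
Percent of each library's counts in large subunit members (filled circles) and small subunit members (open squares), with the mean over libraries as a line; red is AKR and blue is B6N. The 6 OFL libraries sit at 0.421 to 0.458% for the large subunit, below the 8 naive libraries at 0.492 to 0.528%.

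Per kilobase of the longest annotated principal transcript, members differed widely in level. This length had a median of 882 bases but was 5179 for Rps15a and 3706 for Rps20, so the annotation enters the spread and the ranking. Rplp1, a stalk protein, was highest, at 255 ± 8.08 CPM per kb in AKR after OFL, 478 ± 27.3 in naive AKR, 233 ± 11.9 in B6N after OFL and 421 ± 19.5 in naive B6N. Rps15, of the small subunit head, followed with 221 ± 5.93, 369.6 ± 19.8, 205 ± 8.37 and 353 ± 18.3 CPM per kb in the same order of groups. Rpl41, the shortest protein of the family, had 233 ± 7.58, 299.8 ± 22.8, 214 ± 12 and 278 ± 8.41. After OFL the means of Rps15 and Rpl41 differed by less than the sum of their SDs in each strain, and in naive tissue Rps15 was the higher.

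The lowest members were mostly paralogs with known expression in other tissues. Rpl10l, a testis paralog of Rpl10, had 0 counts in all 14 libraries, which allows up to 0.222 CPM in the smallest library (3 counts; counting error only). Rpl39l, another testis paralog, had 13 counts in all, and Rpl3l, the heart and skeletal muscle paralog of Rpl3, had 80. In naive AKR, Rpl3l averaged 0.263 ± 0.0432 CPM per kb, while the ubiquitous partners stood at 199 ± 4.97 (Rpl3), 162 ± 6.00 (Rpl10) and 80.3 ± 9.18 CPM per kb (Rpl39; SD, n = 4). Rps27l, a paralog of Rps27 induced by p53 in other tissues, was counted throughout, at 14.9 ± 1.11 CPM per kb in naive AKR, where Rps27 had 175 ± 16.9 CPM per kb. Rpl24 and Rpl13a were low without being tissue-restricted genes. Rpl24 had 3 to 16 counts per library, and 47.0% of its exonic bases lie under exons of Gm28037 on the same strand. Rpl13a had 108 to 272 counts, with 35.4% of its exonic bases under same-strand exons, where Gm45713 is annotated. Gm28037 and Gm45713 had 0 counts in every library, and the part of the overlap in these low values was not tested. Rpl10l, Rpl39l, Rpl3l and Rpl24 did not pass the expression filter of the strain comparisons, which left 76 of 80 members, and Rpl24 passed that of the fit over all 14 libraries, which left 77.

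The strain comparison asks whether AKR and B6N differ in these genes. Most members were not called, and 13 of them were lower in AKR in both conditions. In naive tissue 9 of 76 members were called higher in AKR and 13 lower (edgeR quasi-likelihood test, Benjamini-Hochberg adjusted p under 0.05 over all genes), against 18.3% of all 17645 genes called higher and 19.5% called lower. After OFL 2 of 76 were called higher and 13 lower, against 7.50% and 8.86% of all 17994 genes. The share of members called lower was 17.1% in both, near the background in naive tissue and above it after OFL. In either direction 22 members were called in naive tissue, where 37.8% of all genes were, and 15 after OFL, where 16.4% were; 54 and 61 members had no call. Of the small subunit members 1 was called higher and 4 lower in each condition, and of the large subunit members 8 and 9 in naive tissue and 1 and 9 after OFL. The median log2 difference of the members was 0.033 in naive tissue and 0.034 after OFL, beside medians of all genes of 0.0061 and 0.0024. In naive tissue 61 of 76 members lay within 0.15 of 0 on the log2 scale.

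The 13 members lower in AKR after OFL were the 13 lower in naive tissue (100% of each list). The same overlap over all genes was not computed, so it is not shown to be particular to the members. The 2 library sets share no sample, but reads of both strains were matched to the same build, GRCm38, in both sets. The part of the build in these strain differences was not tested. They were Rps2, Rps9, Rps18 and Rpsa of the small subunit and Rpl3, Rpl14, Rpl17, Rpl21, Rpl29, Rpl30, Rpl34, Rpl35a and Rplp0 of the large subunit. In each of the 13, every AKR library lay below every B6N library in both conditions, which their choice as members called lower favors. Over all 76 tested members, AKR libraries lay all below B6N libraries for 13 in naive tissue (17.9% of all genes) and 14 after OFL (14.9%). All AKR libraries lay above all B6N libraries for 7 members in naive tissue (16.8% of all genes) and 14 after OFL (16.3%). Leaving out 1 library kept 12 or 13 of these calls in naive tissue, where Rps9 was the one lost. After OFL it kept 10 to 13. Rpl17, Rpl34 and Rps9 lost the call without B6N OFL replicate 2 (adjusted p = 0.126, 0.0948 and 0.0528 in edgeR), and Rpl17 and Rpl34 without B6N OFL replicate 3 (0.119 and 0.0596).

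**Figure D2:**
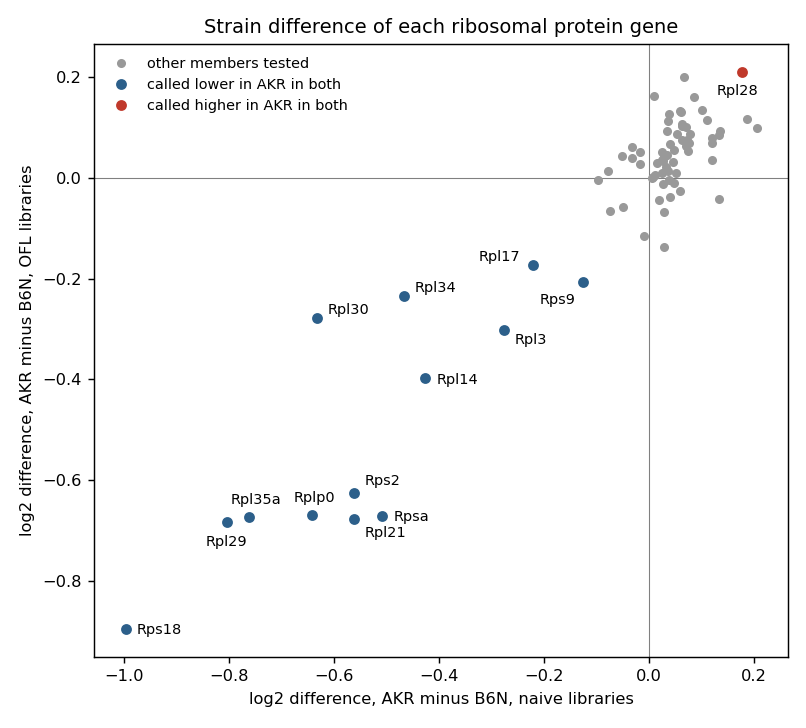
Log2 difference of each of the 76 tested members, AKR minus B6N, in naive libraries (horizontal axis) and OFL libraries (vertical axis). Blue points are the 13 members called lower in AKR in both, from Rps18 (-1.0 and -0.90) to Rps9 (-0.13 and -0.21); the red point is Rpl28 (0.18 and 0.21), called higher in both, and grey points are all other members.

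Rps18, a protein of the small subunit head that contacts the large subunit, had the largest strain difference. It had 50.8, 51.4, 44.8 and 46.7 CPM in naive AKR, against 94.2, 93.1, 97.2 and 103 CPM in naive B6N. After OFL it had 42.1, 44.1 and 45.3 CPM in AKR, against 80.4, 77.1 and 85.6 CPM in B6N. The strains did not overlap in either condition, and the highest AKR library of all 7 was well below the lowest B6N library of all 7. The log2 difference was -1.0 (SE 0.048, edgeR adjusted p = 3.17e-11) in naive tissue and -0.90 (SE 0.061, edgeR adjusted p = 1.71e-09) after OFL. Rps18 (chr17:33951999-33956001, minus strand, GRCm38) lies 18658 bases from H2-K2 and 40016 bases from H2-K1, genes of the major histocompatibility complex.

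Among the small subunit members, Rpsa, which is also known as the laminin receptor, had 196, 184, 175 and 175 CPM in naive AKR, against 260.0, 256, 281 and 241 CPM in naive B6N. Rps2, a protein at the entry of the messenger RNA channel, had 123, 115, 117 and 116 CPM in naive AKR, against 179, 164, 188 and 166 CPM in naive B6N. The strains were apart in both genes, at log2 -0.51 (SE 0.047) for Rpsa and -0.56 (SE 0.044) for Rps2. After OFL the differences were -0.67 (SE 0.052) and -0.63 (SE 0.054). Rps9, another protein of the entry channel, had the smallest of these differences, -0.13 (SE 0.039, edgeR adjusted p = 0.0172) in naive tissue and -0.21 (SE 0.050, edgeR adjusted p = 0.00669) after OFL. Rps6, the substrate of S6 kinase, and Rps27a, made as a fusion with ubiquitin, were called in neither condition. Rps6 stood at 133 ± 4.90 CPM in naive AKR and 130.5 ± 3.05 CPM in naive B6N (SD, n = 4 each), and Rps27a at 99.6 ± 6.19 and 99.4 ± 2.87 CPM in the same groups.

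In the large subunit, Rpl29 and Rpl35a followed Rps18 in size. Rpl29 had 61.3, 62.9, 61.3 and 59.6 CPM in naive AKR, against 100, 96.6, 116 and 116 CPM in naive B6N (log2 -0.80, SE 0.055, edgeR adjusted p = 4.04e-09). Rpl35a, whose human counterpart is mutated in some families with Diamond-Blackfan anemia, had 46, 47.4, 38.5 and 40.5 CPM in naive AKR, against 72.9, 74.8, 72.4 and 73 CPM in naive B6N (log2 -0.76, SE 0.054, edgeR adjusted p = 6.37e-09). Both were also apart after OFL, at log2 -0.68 (SE 0.059) and -0.67 (SE 0.059). By counts at the genes alone, the 3 stalk genes did not move together. Rplp0, the base of the stalk, had 109, 107, 97 and 98.9 CPM in naive AKR, against 161, 158, 164 and 160.2 CPM in naive B6N (log2 -0.64, SE 0.039, edgeR adjusted p = 8.46e-10). With the counts of its pseudogenes added, as described below, Rplp0 averaged 154 CPM in naive AKR and 161 CPM in naive B6N and was not called. Rplp1 was higher in naive AKR, with 249.5, 251, 224 and 230.3 CPM against 199, 206, 221 and 215 CPM in naive B6N (log2 0.19, SE 0.043, edgeR adjusted p = 0.0025). Rplp2 was not called (log2 0.078, SE 0.042, edgeR adjusted p = 0.156), with libraries of the strains overlapping.

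The other large subunit members lower in AKR covered a range of sizes. Log2 differences in naive tissue were -0.63 for Rpl30, -0.56 for Rpl21, -0.47 for Rpl34, -0.43 for Rpl14, -0.28 for Rpl3, a protein next to the peptidyl transferase center, and -0.22 for Rpl17, which lines the exit tunnel. After OFL they were -0.28, -0.68, -0.23, -0.40, -0.30 and -0.17 for the same genes. Rpl30 and Rpl34 were nearer to 0 after OFL and the rest differed little between conditions.

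**Figure D3:**
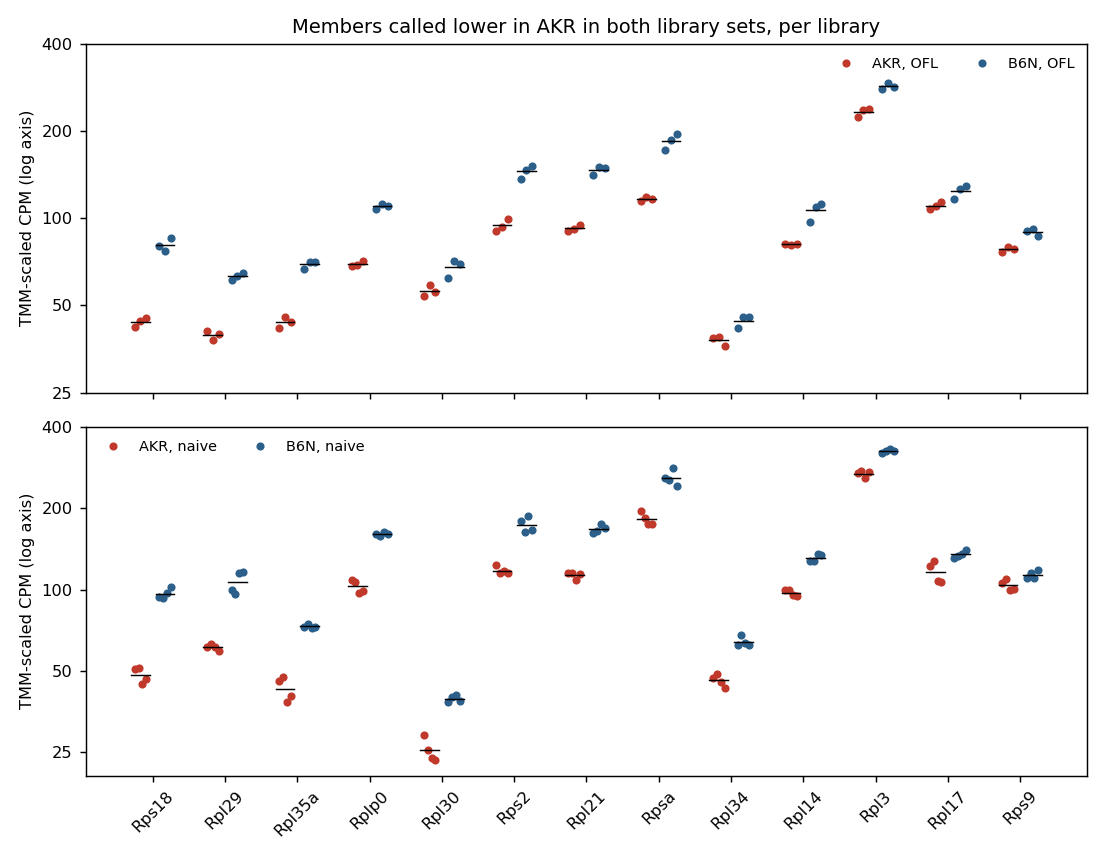
TMM-scaled CPM (log axis) of the 13 members called lower in AKR in both library sets, 1 point per library with the mean as a line; AKR is red and B6N blue, OFL libraries are above and naive libraries below. In each gene the AKR points lie below the B6N points, most clearly for Rps18, at 44.8 to 51.4 CPM in naive AKR and 93.1 to 103 CPM in naive B6N.

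Members higher in AKR were fewer and the differences smaller. Rpl28 was the only member called higher in both conditions, with 93.6, 99.8, 90.3 and 92.9 CPM in naive AKR against 78, 82.7, 85.8 and 87.4 CPM in naive B6N (log2 0.18, SE 0.043, edgeR adjusted p = 0.0033), and a log2 difference of 0.21 (SE 0.060, edgeR adjusted p = 0.0202) after OFL. In naive tissue the other calls included Rpl13, Rpl23a, Rpl38, Rpl4, Rpl7a, Rplp1 and Rps20, between log2 0.12 (Rpl13) and 0.21 (Rpl23a). After OFL the other call was Rps14 (log2 0.16, SE 0.047, edgeR adjusted p = 0.0232). These counts changed with single libraries. The count of 9 in naive tissue was 4 without AKR naive replicate 2 and 5 without B6N naive replicate 1. The count of 2 after OFL was 1 without AKR OFL replicate 1 or 3, 0 without AKR OFL replicate 2 or B6N OFL replicate 2, and 5 without B6N OFL replicate 3; the 0 by edgeR stands beside 1 by DESeq2 on all 6 libraries.

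Reads of a ribosomal protein gene can also be counted at its pseudogenes, so the copies were measured beside their parents. In all, 77 of the 80 members shared at least 20 stretches of 31 bases with a pseudogene, with a median of 21.2% of a member's stretches shared, and 1120 pseudogenes were assigned to the member they shared most with. Few had counts: 53 passed the filter in naive tissue (10 called higher in AKR, 6 lower), where 18.3% of all genes were called higher and 19.5% lower, and 64 after OFL (7 higher, 2 lower), where 7.50% and 8.86% were. Those with at least 3 CPM in some group and a large strain difference belonged to Rpsa, Rps2, Rplp0, Rpl3, Rpl17, Rpl34 and Rps7, and all but Rps7 were among the 13 members lower in AKR. Counts of such near-identical copies and of their parents are uncertain, since reads could be assigned to either. The assignment also took genes with few shared stretches, such as Olfr1372-ps1 with Rpl37a (46) and Thap6 with Rps25 (27). Not every assigned gene need therefore be a copy of its member.

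Rpsa-ps10 (chr3:150072658-150073542, minus strand) had 126, 123, 113 and 117 CPM in naive AKR, against 1.34, 0.990, 1.18 and 1.16 CPM in naive B6N. It had 50.5, 53.9 and 57.6 CPM in AKR after OFL, against 0.617, 0.490 and 0.779 CPM in B6N after OFL. Counts at this copy were thus almost confined to the 7 AKR libraries, with log2 differences of 6.67 and 6.40 (edgeR adjusted p = 3.88e-20 and 3.72e-17). Gm8730, a copy of Rplp0 (chr8:102864845-102865798, minus strand), had 40.4, 43.1, 41.8 and 38.3 CPM in naive AKR, against 0.157, 0.0450, 0.395 and 0.0859 CPM in naive B6N. Rps2-ps10 averaged 61.1 CPM in naive AKR and 0.885 CPM in naive B6N, and Rpl3-ps1 (chrX:13202571-13203780, plus strand) 30.4 CPM in naive AKR and 3.70 CPM in naive B6N. Rpl17-ps5 and Rpl34-ps1 (chr6:71124610-71124963, plus strand) differed by strain in naive tissue, at 8.88 and 7.55 CPM in AKR against 0.447 and 0.0418 CPM in B6N. After OFL both were under 0.6 CPM in AKR and did not pass the filter.

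The copies and their parents differ at few coding bases, as 3 stretches of 90 bases show. Sequences are from the GENCODE transcripts of GRCm38, and capitals mark the bases at which gene and copy differ.
Rpsa, coding bases 130 to 219: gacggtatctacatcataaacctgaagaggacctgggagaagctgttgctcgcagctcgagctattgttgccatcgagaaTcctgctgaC
Rpsa-ps10: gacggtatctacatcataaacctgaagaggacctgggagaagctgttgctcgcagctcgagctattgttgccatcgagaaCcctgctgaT
Rplp0, coding bases 358 to 447: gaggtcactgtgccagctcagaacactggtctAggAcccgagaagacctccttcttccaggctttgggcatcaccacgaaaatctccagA
Gm8730: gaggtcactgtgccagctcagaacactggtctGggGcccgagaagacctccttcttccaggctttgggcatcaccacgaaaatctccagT
Rpl3, coding bases 1 to 90: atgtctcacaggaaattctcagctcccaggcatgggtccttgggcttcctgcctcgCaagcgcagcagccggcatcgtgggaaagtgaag
Rpl3-ps1: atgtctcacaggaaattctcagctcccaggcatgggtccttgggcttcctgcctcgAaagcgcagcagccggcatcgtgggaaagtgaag
Counted from 1 at the A of the start codon, with the gene's base first, the differences shown are T210C and C219T in Rpsa, A390G, A393G and A447T in Rplp0 and C57A in Rpl3. Over the whole aligned coding sequence, 6 of 885 bases differed for Rpsa (99.3% identical), 12 of 951 for Rplp0 (98.7%), 2 of 1209 for Rpl3 (99.8%), 2 of 353 for Rpl34 and Rpl34-ps1 (99.4%) and 5 of 893 for Rps2 and Rps2-ps10 (99.4%).

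With the counts of its assigned pseudogenes added to each member, the strain differences of these genes shrank or turned. In naive tissue Rpsa became higher in AKR, at log2 0.22 (edgeR adjusted p = 0.0012), and Rps2, Rplp0 and Rpl17 were no longer called, at 0.042 (edgeR adjusted p = 0.488), -0.062 (edgeR adjusted p = 0.206) and -0.12 (edgeR adjusted p = 0.0602). Rpl3 and Rpl34 were still called lower, at -0.14 (edgeR adjusted p = 0.00225) and -0.25 (edgeR adjusted p = 3.71e-04). After OFL 12 of the 13 were still called lower with the copies added. The exception was Rpsa (log2 -0.13, edgeR adjusted p = 0.105). The sum for Rpsa was 303 ± 15.4 CPM in naive AKR and 261 ± 16.6 CPM in naive B6N (SD, n = 4 each), and copies gave 121 CPM of it in naive AKR and 1.67 CPM in naive B6N. The other 7 members lower in AKR had no copy of this kind, and adding copies moved them little: in naive tissue Rps18 stood at -0.99, Rpl29 at -0.79, Rpl35a at -0.75, Rpl30 at -0.62, Rpl21 at -0.54, Rpl14 at -0.41 and Rps9 at -0.13.

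**Figure D4:**
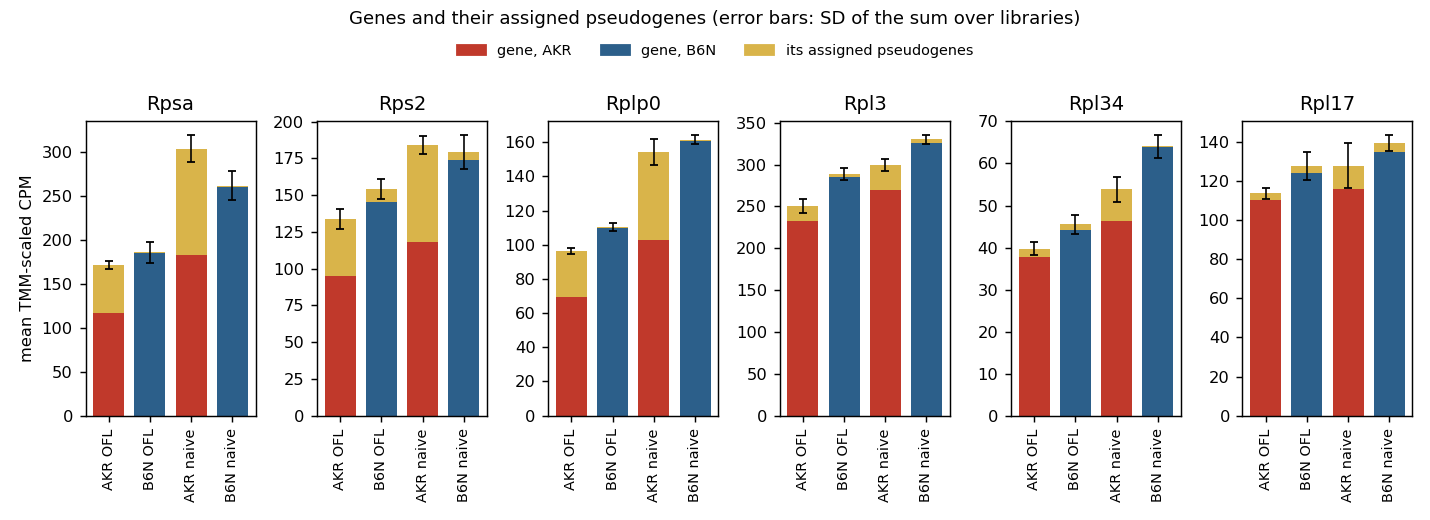
Mean TMM-scaled CPM of 6 members (red for AKR, blue for B6N) with the counts of their assigned pseudogenes stacked on top (yellow); error bars are the SD of the sum over 3 OFL or 4 naive libraries. In naive tissue copies make up 121 of 303 CPM for Rpsa in AKR and 1.67 of 261 CPM in B6N, and for Rplp0 51.5 of 154 CPM in AKR and 0.570 of 161 CPM in B6N.

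The condition comparison asks how these genes differ after OFL. Most members were lower in OFL than in naive tissue in both strains, Rpl23a and Rpl35 were several-fold higher, and the strains shared most calls. In AKR 52 of 77 members were called lower and 8 higher (edgeR, adjusted over all genes), where 38.8% of all 20291 genes were called lower and 39.8% higher. In B6N 53 were called lower and 6 higher, where 38.4% and 40.0% of all genes were. The median log2 difference of the members was -0.25 in AKR and -0.24 in B6N, beside medians of all genes of -0.0070 and -0.0019. In either direction 60 members were called in AKR, where 78.7% of all genes were, and 59 in B6N, where 78.4% were. OFL libraries lay all below the naive ones for 51 members in AKR (37.8% of all genes) and 51 in B6N (37.4%), and all above for 7 in AKR (38.9%) and 6 in B6N (39.2%). Of the members called, 50 were lower in both strains (96.2% of those in AKR, 94.3% of those in B6N) and 6 were higher in both (75% and 100%), among them Rpl23a, Rpl30, Rpl35, Rpl5 and Rps24. The share of all genes called alike in both strains was not computed, so this agreement is not shown to be particular to the members. Rpl38 and Rps6 were called lower in AKR alone, and Rpl17 and Rps19 were among those called in B6N alone, with no test of the difference between strains other than the interaction below. The AKR and B6N comparisons come from 1 fit but share no library. Both set libraries of the OFL table against libraries of the naive table, so a difference between library sets would enter both strains. Scaling on nuclear protein-coding genes shifted the median of all genes to 0.11 in both strains, and the split became 15 higher and 42 lower in AKR and 14 higher and 39 lower in B6N, with members' medians of -0.13 in each.

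Among members lower after OFL, Rps16, whose tail reaches the peptidyl-tRNA, changed most. It had 16.2, 27.6 and 19.7 CPM in AKR after OFL, against 87.6, 94, 82 and 86.1 CPM in naive AKR. In B6N it had 20.6, 21.6 and 16.3 CPM after OFL, against 83.6, 83.7, 83 and 91.2 CPM in naive tissue. No OFL library came near a naive one, and the log2 differences were -2.04 (SE 0.099, edgeR adjusted p = 2.60e-16) in AKR and -2.13 (SE 0.10, edgeR adjusted p = 1.22e-16) in B6N. Rpl28 had 47.3, 46.7 and 45.3 CPM in AKR after OFL, against 93.6, 99.8, 90.3 and 92.9 CPM in naive AKR. Its log2 difference was -1.02 (SE 0.051) in AKR and -1.06 (SE 0.052) in B6N. It was lower in every OFL library than in every naive library of the same strain.

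All 3 stalk genes were lower after OFL in both strains. The log2 differences were -0.57 in AKR and -0.55 in B6N for Rplp0, -0.91 and -0.85 for Rplp1, and -0.89 and -0.91 for Rplp2, with edgeR adjusted p-values from 2.39e-15 to 1.19e-11. Rplp2 had 42.4, 45.9 and 45.2 CPM in AKR after OFL, against 83.8, 85.7, 79.4 and 81 CPM in naive AKR. Next in size in AKR were Rps26 (-0.75 in AKR and -0.77 in B6N), Rps15 (-0.74 and -0.78), Rps10 (-0.72 and -0.77), Rpl18 (-0.67 and -0.65), Rpsa (-0.64 and -0.49) and Rpl29 (-0.63 and -0.76). Rps6 barely differed: it was called in AKR (log2 -0.11, SE 0.041, edgeR adjusted p = 0.0138), not in B6N (log2 -0.026, SE 0.040, edgeR adjusted p = 0.556), and its sign turned under scaling on nuclear protein-coding genes (0.0043 in AKR, 0.089 in B6N). Rps27a was lower at -0.33 and -0.33, and Rps27l at -0.47 and -0.32. Rps4x, whose partner Rps4y is found on the Y chromosome in primates, was called lower in both strains (-0.099 and -0.18), and in AKR its sign turned under the same scaling (0.018).

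The members higher after OFL were led by Rpl23a and Rpl35, neighbouring proteins at the mouth of the exit tunnel. Rpl23a had 108, 116 and 114 CPM in AKR after OFL, against 11.6, 13.6, 11.8 and 12 CPM in naive AKR. In B6N it had 98.3, 106 and 109 CPM after OFL, against 9.52, 10.8, 11.2 and 11.3 CPM in naive tissue. The sets of libraries were far apart, with log2 differences of 3.19 (SE 0.061, edgeR adjusted p = 6.12e-25) in AKR and 3.29 (SE 0.062, edgeR adjusted p = 4.62e-25) in B6N. Rpl35 had 59.9, 60.7 and 60.3 CPM in AKR after OFL, against 18.2, 19.4, 15.1 and 16.5 CPM in naive AKR. Its log2 difference was 1.80 (SE 0.077) in AKR and 1.70 (SE 0.076) in B6N. Rpl30 was higher at 1.14 (SE 0.064) and 0.78 (SE 0.060), Rpl5 at 0.18 (SE 0.050) and 0.27 (SE 0.049), and Rps24 at 0.18 (SE 0.044) and 0.16 (SE 0.044), in AKR and B6N. In AKR, Rps25 (0.12) and Rps27 (0.14) were also called.

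Overlap with genes of the opposite strand moved with this split. In 7 members exons of the opposite strand cover at least 15% of the exonic bases, among them Rpl35 (66.2%, Wdr38 and Arpc5l), Rpl23a (59.7%, Tlcd1), Rpl31 (25.3%, Tbc1d8), Rps25 (24.8%, Trappc4 and Ccdc84), Rpl5 (24.3%, Fam69a) and Rpl30 (20.4%, D730044K07Rik). Of these 7, 6 were called higher after OFL and 1 lower in AKR, and 5 higher and 1 lower in B6N, with medians of 0.89 and 0.78. Of the 60 tested members with no such base, 2 were called higher and 44 lower in AKR, and 1 higher and 45 lower in B6N, with medians of -0.28 and -0.30. The 10 members with a smaller overlap had 7 called lower and 3 not called in each strain. Of all genes, 39.8% were called higher and 38.8% lower in AKR, and 40.0% and 38.4% in B6N. The 15% limit was set with the values in view, so these counts are a description. Genes outside the members were not sorted by overlap. The kit does not mark strand, so reads from a gene and from a partner on the opposite strand cannot be told apart, and the strand setting of the counting of each table is not given in the sources used here. Of the partners, Tlcd1 had 13.8 ± 1.89 CPM in AKR after OFL and 18.1 ± 2.40 CPM in naive AKR (SD, n = 3 and 4), and Arpc5l had 57.6 ± 0.774 CPM in AKR after OFL and 64.5 ± 2.16 CPM in naive AKR. D730044K07Rik, opposite Rpl30, had 0.699 ± 0.161 CPM in AKR after OFL and 0.0590 ± 0.0266 CPM in naive AKR. The part of the overlap in these differences was not tested.

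**Figure D5:**
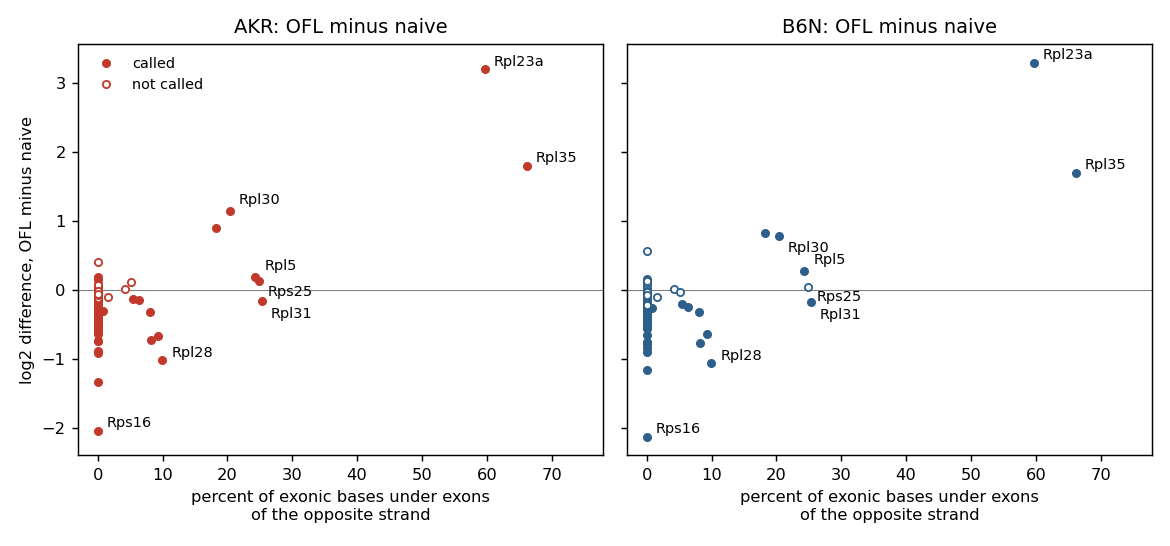
Log2 difference, OFL minus naive, of each of the 77 tested members in AKR (left) and B6N (right), against the percent of its exonic bases that opposite-strand exons cover; filled points were called by edgeR and open points were not. Rpl23a and Rpl35, at 59.7 and 66.2% overlap, have the largest positive differences, while most members at 0% lie below 0, down to Rps16 at -2.04 and -2.13.

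Markers of cell types also moved with condition. The summed level of 5 neuron markers was 4059 to 4160.4 CPM in AKR after OFL, against 5167 to 5531 CPM in naive AKR, and 3993 to 4065 CPM in B6N after OFL, against 5101 to 5276 CPM in naive B6N. The sum of 5 astrocyte markers was higher after OFL, at 3838 to 3939.6 CPM in AKR after OFL against 2791 to 3307 CPM in naive AKR, and 4531 to 4646 CPM in B6N after OFL against 3214 to 3458 CPM in naive B6N. Gene by gene, 1 of the 5 astrocyte markers was called higher after OFL and 2 lower in AKR (median log2 difference -0.073), and 2 higher and 3 lower in B6N (median -0.15), so most called markers did not follow the sum. Oligodendrocyte markers were at 969 to 1188 CPM in AKR after OFL against 1551 to 1799 CPM in naive AKR, microglial markers at 186 to 193 against 245 to 287 CPM, endothelial markers at 226 to 235 against 252 to 289.6 CPM and striatal markers at 54.9 to 62.8 against 76.7 to 91.6 CPM in the same AKR groups. In B6N, oligodendrocyte sums overlapped between conditions, and microglial, endothelial and striatal sums did not. Among the 5 striatal markers, 1 was called higher after OFL and 4 lower in each strain. Among the 5 endothelial markers, 0 were called higher and 3 lower in AKR, and 1 higher and 4 lower in B6N. Oligodendrocyte and microglial markers had 0 called higher in either strain. Blood genes differed by strain as well, at 18.9 to 33.2 CPM in naive AKR and 47.5 to 55.7 CPM in naive B6N. Single blood genes differed there by log2 -5.86 to -0.30, AKR minus B6N, so their sum does not stand for an even shift. Choroid plexus markers stayed at or below 5.83 CPM in all groups. No marker was at 0 in any group. Their part in the changes of the ribosomal protein genes was not tested.

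The interaction asks whether the change after OFL differed between the strains. Rpl30, a protein that also binds RNA elements for selenocysteine insertion, was the only member called of 77, where 3.61% of all genes were called higher, 1.54% lower and 5.15% in either direction. Rpl30 had 53.8, 58.7 and 55.8 CPM in AKR after OFL, against 28.9, 25.6, 23.9 and 23.4 CPM in naive AKR. In B6N it had 62, 71.4 and 69.5 CPM after OFL, against 38.5, 40.0, 40.8 and 38.8 CPM in naive tissue. It was higher after OFL in both strains, and on the log2 scale the increase was larger in AKR by 0.37 (SE 0.088, edgeR adjusted p = 0.0131). The log2 scale measures a ratio, and the naive level was lower in AKR, at 23.4 to 28.9 CPM against 38.5 to 40.8 CPM in B6N. No member was called lower (0 of 77 by edgeR and by DESeq2), and 2 of 77 were below 0 at an unadjusted p under 0.05 in edgeR. With pseudogene counts added, Rps2 and Rpsa were called lower. For Rpsa the interaction with copies added was -0.33 (edgeR adjusted p = 0.00523). The rest of the members gave interactions between -0.16 (Rpl24) and 0.24 (Rpl34, edgeR adjusted p = 0.0691).

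Genes around the ribosome were read from whole lists. Their counts stand beside 38.8% of all genes called lower and 39.8% higher after OFL in AKR, 38.4% and 40.0% in B6N, and 18.3% called higher and 19.5% lower in AKR in naive tissue. Of 10 ribosomal protein genes outside the rule on symbols, 8 were tested in naive tissue, with 2 called higher in AKR and 2 lower. Fau, which encodes a ubiquitin-like protein fused to the small subunit protein Rps30, was higher in naive AKR at 0.20 (edgeR adjusted p = 0.00173), and lower after OFL at -0.81 in AKR and -0.80 in B6N. Rpl22l1, the paralog of Rpl22, was higher after OFL at 0.95 (edgeR adjusted p = 1.80e-11) in AKR and 1.0 (edgeR adjusted p = 4.12e-12) in B6N, while Rpl22 itself was lower (-0.31 and -0.26). In the condition comparison 2 of these 10 were called higher and 4 lower in AKR, and 3 and 3 in B6N.

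Translation factors and other genes with TOP messenger RNAs were lower after OFL more often than higher, with 12 of 19 called lower and 4 higher in AKR and 12 lower and 5 higher in B6N (medians -0.30 and -0.39), against 38.8% and 38.4% of all genes lower. Eif3f, a subunit of initiation factor eIF3, was lower at -1.17 and -1.24 and Tpt1 at -0.90 and -0.94. By strain 3 of 19 were called higher in naive AKR, no more than the 18.3% of all genes, and the other 16 were not called. Eef2, the translocation factor, was 0.14 (edgeR adjusted p = 0.00322). Genes of mTORC1, S6 kinase and the LARP proteins were split, at 7 higher and 7 lower of 16 in AKR and 6 higher and 8 lower in B6N, where 38.4% to 40.0% of all genes were called each way. Eif4ebp2, the repressor of cap-dependent initiation of neurons, was lower after OFL (-0.82 and -1.11), and Larp4 was higher (0.87 and 0.95).

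Ribosome biogenesis factors had 16 of 27 called lower and 6 higher after OFL in each strain, where 38.8% of all genes in AKR and 38.4% in B6N were lower and 39.8% and 40.0% higher. Nob1, which cuts the precursor of the small subunit RNA, was lower at -1.50 in AKR and -1.54 in B6N, and Mdn1, an ATPase that matures the large subunit, was higher at 1.16 and 0.96. Genes of 2 other large complexes had similar counts. Of the 77 tested mitochondrial ribosomal protein genes 45 were called lower and 16 higher in AKR, and 43 and 14 in B6N, with medians of -0.29 and -0.25. Of the 76 tested nuclear respiratory chain genes 45 were called lower and 9 higher in AKR, and 47 and 10 in B6N, with medians of -0.20 and -0.19. No test of a difference between lists was made.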

How the data were processed

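RNA of anterior cingulate cortex was measured in 14 libraries, and the values used are raw read counts per Ensembl gene, which the authors deposited as 2 tables, of 8 naive and of 6 OFL libraries. Per the submitters' processing notes, CASAVA, cutadapt 2.7, TopHat2 2.1.1, HTSeq and edgeR were used with build GRCm38; the annotation release, the strand setting of the counting and its handling of reads that match several places are not given in the sources used here. The deposited tables of scaled values per sample were not used. GENCODE GRCm38 names were found for 53360 of 53465 genes, and 105 had none.

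Counts were tested in R 4.3.3 with edgeR 4.0.16 (filterByExpr, TMM, quasi-likelihood F-test) on all genes, with Benjamini-Hochberg adjustment over all genes tested and a call at an adjusted p under 0.05. Strain was tested within each table (8 or 6 libraries), and condition and the interaction in 1 fit of all 14. Alternatives were DESeq2 1.42.0, upper-quartile factors (edgeR), scaling on nuclear protein-coding genes or without ribosomal protein genes, other filters, other sets of libraries, a replicate block, leaving out each library, and adding pseudogene counts. Pseudogenes, and genes of any type with a symbol ending in -ps and digits, that share at least 20 stretches of 31 bases with members were assigned to the member they share most with. The fit was tested on simulated data. Within every group, pairs of libraries differed by more than counting noise.

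Members and lists were chosen with earlier results of these data known. Members named were the 6 called with the largest difference in each direction and comparison, Rps6, Rpsa, Rps27a and the stalk genes, paralog pairs, the 3 highest and 3 lowest per kilobase, and those not tested. The rest of the 13 members lower in AKR, members with an opposite-strand overlap, the copies, and the other members called in few comparisons were named after their values were seen. Some members are counted in the totals and are not reported here by name.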

Additional observations from a re-analysis of the deposited data

Results flagged for a closer look

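In the 4 naive B6N libraries, Rps16 had 91.2 TMM-scaled CPM in replicate 4, against 83.0 to 83.7 CPM in the other 3, a gap above Dixon's 95% critical value for 4 samples. In all, 38 members were looked at in the naive AKR and naive B6N groups, and this was the 1 library apart; chance flags about 1 in 20 groups.

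The change of Rpl30 after OFL differed between the strains, with an interaction of 0.37 on the log2 scale (SE 0.088, edgeR adjusted p = 0.0131). Rpl30 was higher after OFL by log2 1.14 in AKR and 0.78 in B6N, and 20.4% of its exonic bases lie under exons of the opposite strand. The interaction was called under every alternative run, at log2 0.31 to 0.43 with edgeR or DESeq2 adjusted p-values of 0.00125 to 0.0475.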

How the results depend on the processing

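Most results held their call, and called ones their direction. Away from leaving out libraries, 997 single-gene values kept the call or stayed without one. Of the others, 18 lost the call, 7 gained it and 5 turned sign with a call before or after. Leaving out 1 library, 1259 kept the call or stayed without one, 28 lost the call and 5 gained it. Values that turned sign without any call are counted among those that stayed without one. For the condition comparisons, these fits include those that left out a library of the strain not compared. Counts of members called and shares were judged apart. On leaving out 1 library 8 of them moved and 118 did not. Under the other alternatives 10 moved and 86 did not. With pseudogene counts added, the naive strain difference was 0.042 for Rps2 and 0.22 for Rpsa, and the interaction had 2 members called lower. The summed copies of Rpsa averaged 121 CPM in naive AKR and 1.67 CPM in naive B6N, and 54.2 CPM in AKR and 0.839 CPM in B6N after OFL. Those of Rps2 averaged 66.4 CPM in naive AKR and 5.03 CPM in naive B6N, and 38.9 CPM in AKR and 8.97 CPM in B6N after OFL. Scaling on nuclear protein-coding genes gave 15 members called higher after OFL in AKR and 14 in B6N, and log2 differences of 0.018 for Rps4x in AKR, 0.0043 for Rps6 in AKR and 0.089 for Rps6 in B6N; the cause was not tested. DESeq2 called 1 member higher in AKR after OFL, where edgeR called 2. With nuclear protein-coding counts as the denominator the share was 0.737% in AKR after OFL, 0.861% in naive AKR, 0.760% for B6N after OFL and 0.875% in naive B6N, and with pseudogenes added it was 0.721% in AKR after OFL and 0.864% in naive AKR.

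Leaving out 1 library gave 4 to 12 members higher in AKR in naive tissue and 0 to 5 after OFL, 12 to 13 lower in naive tissue and 10 to 14 after OFL. It gave 6 to 10 higher and 47 to 54 lower in AKR after OFL, 6 to 7 and 48 to 55 in B6N after OFL, and an interaction called higher for 1 to 2. Without AKR naive replicate 2 the second was Rpl34 (0.27, edgeR adjusted p = 0.0393). With all 14 libraries in 1 fit, Rpl17 was not called between the strains after OFL (edgeR adjusted p = 0.0576).

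The replicate numbers did not pair the libraries, with correlations of deviations from -0.17 to 0.13. With replicate number as a block, 8 members were higher and 13 lower in AKR when naive, 3 and 13 after OFL, while 7 and 50 after OFL in AKR, 6 and 52 after OFL in B6N, and 1 and 0 for the interaction. With 3 or 4 libraries a group, small differences and the members under 11 counts per library could not be resolved.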
